A study of Caenorhabditis elegans with 4 samples.

Results

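The genes described here encode subunits of ligand-gated ion channels of Caenorhabditis elegans. They were chosen by name alone, as the genes of the count table called acr, lgc, glr or nmr with a number, together with unc-29, unc-38, unc-63, unc-49, lev-1, exp-1, eat-2, deg-3 and des-2. This gave 93 of the 19913 genes in the table, namely 21 acr genes, 53 lgc genes, 8 glr genes, 2 nmr genes and the 9 genes listed by name. RNA came from whole animals of the first larval stage (L1), synchronized by repeated bleaching and grown on standard plates, with 2 libraries for wild type (N2) and 2 for pry-1(mu38). PRY-1 is an Axin, a scaffold of the complex that holds Wnt signaling down, and mu38 is a nonsense allele of its gene with overactive canonical Wnt signaling. No transgene or drug was involved. The methods of the study call the libraries of a strain biological replicates, without saying how the cultures were kept apart.

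A ligand-gated ion channel opens when a transmitter binds it. The Cys-loop channels are rings of subunits that pass either cations, which excite the cell, or chloride, which inhibits it, and in the worm this family includes nicotinic acetylcholine receptors and channels for GABA, glutamate, serotonin, dopamine, tyramine and betaine. Ionotropic glutamate receptors, of the AMPA and kainate type or of the NMDA type, form a separate family. In C. elegans the channels act mainly in neurons, body wall muscle and the pharynx, the feeding organ. Because RNA was taken from whole larvae, fewer cells of a type and less RNA per cell cannot be told apart.

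Libraries held between 27741375 and 33230854 reads counted on genes, and 90 to 92 of the 93 subunit genes had at least 1 count in a library. A normalised read count is given below in CPM (counts scaled to a common library size), after scaling of library sizes by the TMM method, and 1 count corresponded to 0.0302 to 0.0366 CPM. The pry-1 gene had 1926 and 2048 counts in the wild-type libraries against 3812 and 3471 in those of the mutant (here and below replicate 1 is given before replicate 2). A nonsense allele does not have to lower the count of its gene, so this does not check the labels. N2 replicate 2 stood apart from the other 3 libraries for the subunit genes. Their CPM summed to 1219 and 1848 in N2, against 1085 and 1154 in pry-1(mu38). N2 replicate 2 also had the highest share of reads that aligned at several places, 11.6% against 8.04% to 9.41% in the other libraries. Results are therefore given with and without that library.

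The comparison asks which subunit genes differed in RNA level between pry-1(mu38) and N2. Most of them had lower levels in pry-1(mu38) on average, but none passed the test across all genes. After edgeR's filter on low counts 83 subunit genes and 15101 genes in all were tested. By edgeR's quasi-likelihood test, adjusted after Benjamini and Hochberg to a threshold of 0.05, 0 of the 83 were called, where 1 gene in all, or 0.00662%, was called. The smallest adjusted p of a subunit gene was 0.345. At an unadjusted p under 0.05, 9 subunit genes were lower, which is 10.8% of those tested beside 8.23% of all genes, and 2 were higher, which is 2.41% beside 5.93% of all genes. By this test the share of lower subunit genes was close to that of all genes. It was about double the background by DESeq2 (18 genes, 21.7% beside 10.9%) and by edgeR's exact test (19 genes, 22.9% beside 11%). DESeq2 gave an adjusted p to 76 subunit genes and called 2 of them, lgc-54 and lgc-33, beside 3.57% of all genes. Both were lower, beside 2.24% of all genes, and 0 were higher, beside 1.33%. The exact test of edgeR called 2 lower, lgc-54 and lgc-9, beside 0.967% of all genes. Of these, lgc-9 passed the filter through N2 alone, so a lower level in pry-1(mu38) was built in. It is also among the 9 lower genes above and the 19 of the exact test. In the counts given below it is among the 75 genes below 0, the 48 without overlap and the 22 lower 2-fold or more. The medians include it too.

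Direction and overlap of the libraries differed more from the background than the calls did. The fitted log2 fold change of pry-1(mu38) over N2 was below 0 for 75 of the 83 subunit genes, or 90.4%, beside 51.6% of all genes tested. Its median over the subunit genes was -0.64, beside -0.02 over all genes. For 48 subunit genes the higher mutant library was still under the lower N2 library (57.8%, background 28%), and the reverse held for 5 (6.02%, background 29.1%). The libraries of the strains overlapped for the remaining 30 (background 43%). A fitted difference of 2-fold or more was found for 22 lower subunit genes (26.5%, background 12.3%) and 1 higher (1.20%, background 3.7%). These are descriptions of a gene family chosen with earlier results known, and the libraries are only 2 in each strain.

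**Figure D1:**
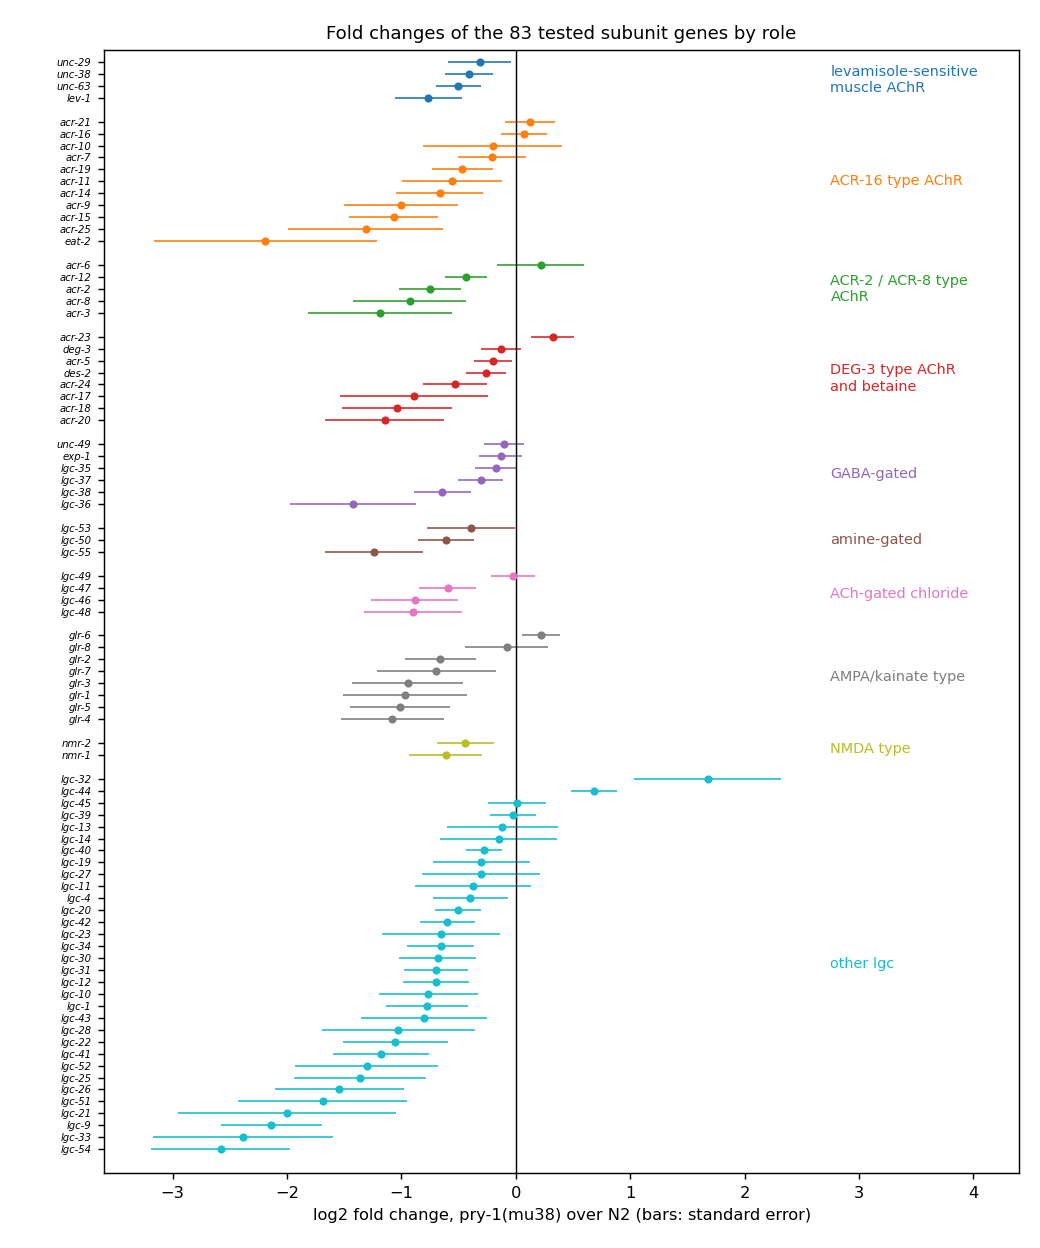
Fitted log2 fold change (pry-1(mu38) over N2, x axis) of each of the 83 tested subunit genes, grouped and coloured by role, with bars for the standard error of the fit. In this fit 75 points lie left of the line at 0 and 8 lie right of it, and without N2 replicate 2 the points left of 0 are 60.

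Much of this lower level turned on a single library. N2 replicate 2 was the highest of the 4 libraries for 73 of the 83 subunit genes, or 88.0%, beside 39.6% of all genes tested. It lay above N2 replicate 1 for 76 of them (background 49.6%). The N2 libraries differed 2-fold or more for 31 subunit genes (background 19.6%), and replicate 2 was the higher in 30 of these (background 16.1%). Between the pry-1(mu38) libraries only 3 subunit genes differed 2-fold or more (background 6.26%), and replicate 2 was above replicate 1 for 62 (background 49.2%). Without N2 replicate 2 the median log2 fold change was -0.20 and 60 subunit genes, or 72.3%, lay below 0 (background 51.3%), whereas without N2 replicate 1 the median was -0.89. Set against N2 replicate 1 alone, both pry-1(mu38) libraries were lower for 51 subunit genes (61.4%, background 41.9%) and higher for 15 (18.1%, background 40.7%). Against N2 replicate 2 alone they were lower for 75 (background 46%) and higher for 7 (background 47.1%). With N2 replicate 2 as the lone wild-type library, edgeR called 46 subunit genes (background 38.9%), 44 of them lower (background 20.4%), and with N2 replicate 1 as the lone one it called 0 (background 1.15%). The direction of the log2 fold change reversed for 17 of the 83 subunit genes without N2 replicate 2, beside 20.6% of all genes. It reversed for 3 without N2 replicate 1 (background 9.92%). Without pry-1(mu38) replicate 1 it reversed for 5 (background 5.85%), and without pry-1(mu38) replicate 2 for 2 (background 4.46%). So the median came closer to 0 without N2 replicate 2, but stayed on the same side.

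**Figure D2:**
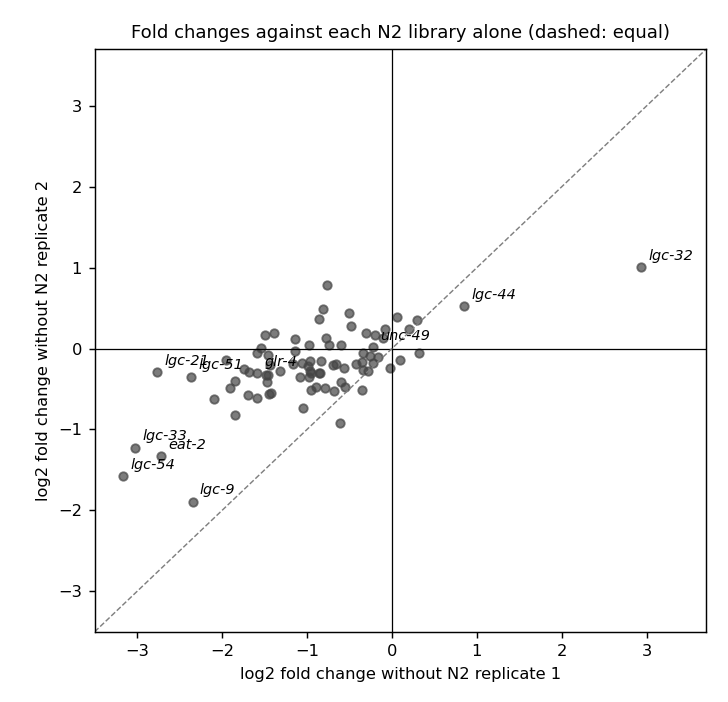
Log2 fold change of the 83 tested subunit genes fitted without N2 replicate 1 (x axis) against that fitted without N2 replicate 2 (y axis), 1 point per gene, with a dashed line where both are equal. Most points lie left of 0 on the x axis and closer to 0 on the y axis; lgc-54, lgc-33, eat-2 and lgc-9 stay below -1 on both axes, and lgc-32 lies at 2.93 and 1.004.

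Subunits of the levamisole-sensitive acetylcholine receptor of body wall muscle, the channel that excites the muscle for locomotion, are taken first. All 4 of its genes that fall under the naming rule had a log2 fold change below 0, with a median of -0.46 (-0.29 without N2 replicate 2). A further subunit gene of this receptor, lev-8, lies outside the rule and is given below with other Cys-loop channels. The alpha subunit gene unc-63 was at 22.5 and 25.7 CPM in N2 and at 15.7 and 18.2 CPM in pry-1(mu38). Its strains do not overlap, and its log2 fold change was -0.50 (SE 0.20, unadjusted p = 0.0512 in edgeR's test). Another alpha subunit gene, unc-38, had 16.7 and 21.1 CPM in N2 and 13.9 and 14.6 CPM in pry-1(mu38). It was again without overlap, with a log2 fold change of -0.41 (SE 0.21). For lev-1, a non-alpha subunit gene, the values were 22.4 and 37.5 CPM in N2 and 17.04 and 18.2 CPM in pry-1(mu38). Its log2 fold change of -0.76 (SE 0.29, unadjusted p = 0.0496 in edgeR's test) was -0.35 without N2 replicate 2. Among the 4 genes of this receptor under the rule, no other came under an unadjusted p of 0.05 in edgeR's test. Outside the rule, lev-8 had a log2 fold change of -1.14 (unadjusted p = 0.0484 in edgeR's test). The remaining non-alpha subunit gene unc-29 was at 17.4 and 27.4 CPM in N2 and at 17.3 and 18.7 CPM in pry-1(mu38). Here N2 replicate 1 lies between the pry-1(mu38) libraries, and the log2 fold change of -0.31 (SE 0.27) became 0.05 without N2 replicate 2.

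Among the ACR-16 type subunits, which resemble the vertebrate alpha7 nicotinic receptor, 9 of 11 genes had a log2 fold change below 0, and the median was -0.56 (-0.14 without N2 replicate 2). The strains did not overlap for 5 of the 11, all lower in pry-1(mu38), where 28% of all genes were lower in this way and 29.1% higher. The nicotine-sensitive receptor of body wall muscle is built from acr-16, which had 19.03 and 23.8 CPM in N2 and 22.6 and 22.5 CPM in pry-1(mu38). Both pry-1(mu38) values sit between the N2 values (log2 fold change 0.07, SE 0.20). Its neighbour acr-15 was at 5.71 and 10.6 CPM in N2 and at 3.48 and 4.30 CPM in pry-1(mu38), with a log2 fold change of -1.07 (SE 0.39, unadjusted p = 0.0427 in edgeR's test) that was -0.56 without N2 replicate 2.

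The eat-2 gene encodes a nicotinic subunit of pharyngeal muscle that is needed for fast pumping. It had 60 and 191 counts in N2 and 7 and 49 counts in pry-1(mu38), or 2.20, 5.77, 0.217 and 1.53 CPM. The strains do not overlap, but the libraries within each strain differ more than 2-fold, and the log2 fold change of -2.19 (SE 0.97) had an unadjusted p of 0.0758 in edgeR's test. It ranged from -4.17 without pry-1(mu38) replicate 2, where edgeR's adjusted p was 0.00712, to -1.33 without N2 replicate 2. Of the 5 pharyngeal muscle marker genes listed, 4 could be matched and tested, all 4 had a log2 fold change below 0 with a median of -1.60, and none was at 0 in a library. Their CPM summed to 391 and 1159 in N2 and to 117 and 258 in pry-1(mu38), in the same order of libraries as eat-2. The pharyngeal myosin gene myo-2 was at 259 and 746 CPM in N2 and at 51.3 and 144 CPM in pry-1(mu38). The part of these markers in the eat-2 result was not tested.

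Of the 5 genes listed together under the ACR-2 and ACR-8 type, 4 were below 0 and the median log2 fold change was -0.75 (-0.26 without N2 replicate 2). No subunit sequences were used for this grouping. The acetylcholine receptor of the cholinergic motor neurons contains ACR-2, ACR-3 and ACR-12. Values for acr-2 were 10.9 and 14.8 CPM in N2 and 6.83 and 8.42 CPM in pry-1(mu38), without overlap. The log2 fold change of acr-2 was -0.75 (SE 0.27, unadjusted p = 0.0403 in edgeR's test) and -0.52 without N2 replicate 2. The acr-12 gene was closer together within strains, at 22.8 and 20.4 CPM in N2 and 16.4 and 15.6 CPM in pry-1(mu38), with a log2 fold change of -0.43 (SE 0.18). For acr-3, which lies next to acr-2 in the genome, levels were 1.21 and 3.38 CPM in N2 and 0.745 and 1.28 CPM in pry-1(mu38), where N2 replicate 1 falls between the mutant libraries. The only gene of the list above 0 was acr-6, at 0.768 and 0.967 CPM in N2 and 0.993 and 1.03 CPM in pry-1(mu38). Its libraries do not overlap, yet the log2 fold change of 0.22 is smaller than its standard error of 0.38.

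DEG-3 type subunits form channels for acetylcholine, choline or betaine. Of the 8 genes 7 were below 0, and the median log2 fold change was -0.40 (-0.16 without N2 replicate 2). DEG-3 and DES-2 make up a choline-responsive channel and are encoded in a single operon. The des-2 gene had 39.8 and 45.5 CPM in N2 and 37.4 and 33.8 CPM in pry-1(mu38), for a log2 fold change of -0.26 (SE 0.17). Its partner deg-3 had 24.5 and 25.4 CPM in N2 and 23.8 and 21.8 CPM in pry-1(mu38), for a log2 fold change of -0.13 (SE 0.17). Neither gene overlapped between strains, and neither difference exceeded 2 standard errors. The betaine receptor gene acr-23, target of the anthelmintic monepantel, was among the 5 genes with both mutant libraries on top, at 13.2 and 13.8 CPM in N2 and 17.1 and 16.7 CPM in pry-1(mu38). The 4 libraries of acr-23 were close within strains, and its log2 fold change was 0.32 (SE 0.19, unadjusted p = 0.146 in edgeR's test). A further betaine-gated channel is encoded by lgc-41, whose values lay the other way, at 8.53 and 16.9 CPM in N2 and 4.63 and 6.58 CPM in pry-1(mu38). For lgc-41 the log2 fold change was -1.18 (SE 0.42, unadjusted p = 0.0382 in edgeR's test) and -0.61 without N2 replicate 2.

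Of the lists by role, the GABA-gated channels had the median log2 fold change nearest to 0, at -0.24 over 6 genes, all 6 below 0 (-0.21 without N2 replicate 2). The unc-49 gene, which encodes the inhibitory GABA receptor of body wall muscle, had by far the most RNA of any subunit gene. Divided by the exon length of the gene, its mean level was 58.6 CPM per kb, followed by 33.2 for lgc-34, 23.99 for lgc-21, 22.4 for lgc-40 and 17.4 for glr-4. The means of lgc-21 and glr-4 leaned on N2 replicate 2, at 65.1 and 33.5 CPM per kb. In the other libraries these genes reached at most 14.5 and 13.7. The level of unc-49 was 228 and 271 CPM in N2 and 242 and 222 CPM in pry-1(mu38), with each strain spanning part of the other. The log2 fold change of -0.11 (SE 0.17) was 0.02 without N2 replicate 2. For exp-1, a GABA-gated cation channel that contracts the enteric muscles in defecation, there were 22.8 and 19.7 CPM in N2 and 20.1 and 18.7 CPM in pry-1(mu38), also overlapping (log2 fold change -0.13, SE 0.19). The excitatory GABA-gated channel gene lgc-35 had 26.3 and 29.6 CPM in N2 and 25.4 and 24.01 CPM in pry-1(mu38), for a log2 fold change of -0.18 (SE 0.18). Larger differences in this list were at lgc-38, with 16.4 and 20.4 CPM in N2 and 10.1 and 13.5 CPM in pry-1(mu38), and at the low-level gene lgc-36, with 0.768 and 1.57 CPM in N2 and 0.341 and 0.530 CPM in pry-1(mu38).

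The 3 genes listed as amine-gated channels (lgc-50, lgc-53 and lgc-55) were all below 0. The list is not complete, since lgc-40, given below with the other lgc genes, is also opened by serotonin. LGC-55 is a chloride channel opened by tyramine that acts in the escape response. Its gene was at 14.9 and 32.4 CPM in N2 and at 8.51 and 11.5 CPM in pry-1(mu38), which do not overlap although the N2 values are more than 2-fold apart. The log2 fold change was -1.24 (SE 0.43, unadjusted p = 0.0349 in edgeR's test), -0.58 without N2 replicate 2, and -1.70 when N2 replicate 1 was left out. The serotonin-gated cation channel gene lgc-50 had 23.9 and 35.3 CPM in N2 and 19.03 and 19.7 CPM in pry-1(mu38), for a log2 fold change of -0.61 (SE 0.25). In the dopamine-gated chloride channel gene lgc-53 the mutant values of 4.41 and 4.74 CPM lay between the N2 values of 4.17 and 7.83 CPM. Among the acetylcholine-gated chloride channels 4 of 4 genes were below 0 with a median of -0.74 (-0.29 without N2 replicate 2), and lgc-46, of the cholinergic motor neurons, had 22.1 and 45.2 CPM in N2 and 16.4 and 20.1 CPM in pry-1(mu38).

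Of the lists by role, the AMPA and kainate type glutamate receptor genes showed the widest gap between the N2 libraries. For these 8 genes the CPM summed to 128 and 258 in N2, against 108 and 126 in the mutant. The median log2 fold change was -0.82 with all libraries and -0.12 without N2 replicate 2. The glr-1 gene, which encodes an AMPA type subunit of the command interneurons for locomotion, had 8.38 and 24.6 CPM in N2 and 7.57 and 9.29 CPM in pry-1(mu38). N2 replicate 1 thus lay between the mutant libraries, and 1 library carried its log2 fold change of -0.97 (SE 0.54), which was 0.005 without N2 replicate 2. The most abundant of these genes was glr-4, at 42.3 and 103 CPM in N2 and 30.6 and 38.3 CPM in pry-1(mu38). Its strains did not overlap, and its log2 fold change of -1.08 (SE 0.45) was -0.30 without N2 replicate 2. The only glutamate receptor gene above 0 was glr-6, with 28.7 and 29.7 CPM in N2 and 35.3 and 32.7 CPM in pry-1(mu38), for a log2 fold change of 0.22 (SE 0.17). Both NMDA type genes were below 0 without overlap. They were at 14.97 and 26.2 CPM (nmr-1) and 10.98 and 15.1 CPM (nmr-2) in N2, and at 12.7 and 14.3 CPM (nmr-1) and 9.75 and 9.51 CPM (nmr-2) in pry-1(mu38).

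The lgc genes outside the lists by role, whatever their ligand, held the largest differences in both directions. Of the 42 genes 32 were tested, 29 of these were below 0, and the median log2 fold change was -0.69 (-0.27 without N2 replicate 2). The lgc-54 gene had 109 and 398 counts in N2 and 43 counts in each pry-1(mu38) library, or 3.99, 12.03, 1.33 and 1.34 CPM. The mutant libraries were nearly equal while the N2 libraries differed 3-fold, and both N2 libraries lay above them. Its log2 fold change was -2.58 (SE 0.61, unadjusted p = 0.00852 and adjusted p = 0.345 in edgeR's quasi-likelihood test). DESeq2 called it lower with an adjusted p of 0.0036, and edgeR's exact test did so with an adjusted p of 0.0154. The log2 fold change was -1.58 without N2 replicate 2, whereas leaving out N2 replicate 1 gave -3.16. Coding genes that overlap lgc-54 on the opposite strand are hpo-8, listed as T15B7.2, and T15B7.1. They were more abundant and had higher mean levels in pry-1(mu38), at 70.9 and 53.9 CPM (hpo-8) and 42.9 and 29.2 CPM (T15B7.1) in N2 and at 99.5 and 90.2 CPM (hpo-8) and 52.2 and 44.3 CPM (T15B7.1) in pry-1(mu38). Since the library kit does not mark strand, reads of such overlaps cannot be assigned to either gene by strand. The read counter set aside ambiguous reads, 0.556% to 0.620% of a library. Whether reads of these overlaps were among them is not given, so the genes may be undercounted there.

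The lgc-33 gene had 141 and 594 counts in N2 and 39 and 103 counts in pry-1(mu38), or 5.16, 17.95, 1.21 and 3.21 CPM. No mutant library reached an N2 library, but within both strains replicate 2 was more than 2-fold above replicate 1. Its log2 fold change of -2.39 (SE 0.78) was -1.22 without N2 replicate 2. DESeq2 called lgc-33 lower with an adjusted p of 0.0331. The adjusted p was 0.345 in edgeR's quasi-likelihood test and 0.108 in its exact test. For lgc-9 there were only 27 and 45 counts in N2 and 9 and 8 counts in pry-1(mu38), or 0.988, 1.36, 0.279 and 0.249 CPM. This was the only tested subunit gene that passed the filter through a single strain, so that a difference was built in. It had the smallest unadjusted p of the subunit genes (0.0051 in edgeR's quasi-likelihood test, adjusted p = 0.345), a log2 fold change of -2.14 (SE 0.44), and an adjusted p of 0.0221 in edgeR's exact test, while DESeq2 gave it no adjusted p. Leaving out N2 replicate 2 moved its log2 fold change only to -1.89.

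Several further lgc genes rested mainly on N2 replicate 2. The lgc-21 gene, with a high mean level per length, had 17.7 and 98.2 CPM in N2 and 7.11 and 21.9 CPM in pry-1(mu38). N2 replicate 1 lay below pry-1(mu38) replicate 2, and the log2 fold change of -2.0 (SE 0.95) was -0.29 without N2 replicate 2, and with pry-1(mu38) replicate 1 as the lone mutant library it was -3.03, with an adjusted p of 3.13e-05 in edgeR's test. For lgc-51 the values of 0.988 and 4.02 CPM in N2 and 0.683 and 0.873 CPM in pry-1(mu38) gave a log2 fold change of -1.69 (SE 0.74), which was -0.35 without N2 replicate 2. The lgc-26 gene was at 3.40 and 9.46 CPM in N2 and at 1.92 and 2.49 CPM in pry-1(mu38), with a log2 fold change of -1.54 (SE 0.56, unadjusted p = 0.0419 in edgeR's test) that was -0.63 without N2 replicate 2. By contrast, lgc-40, a channel opened by serotonin, choline and acetylcholine, had nearly equal replicates, at 41.0 and 41.4 CPM in N2 and 34.1 and 33.9 CPM in pry-1(mu38). Its log2 fold change was -0.28 (SE 0.16, unadjusted p = 0.136 in edgeR's test). The abundant lgc-34 was at 42.3 and 72.7 CPM in N2 and at 36.2 and 36.8 CPM in pry-1(mu38), so that N2 replicate 1 was close to the mutant libraries and N2 replicate 2 was not.

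Higher levels in pry-1(mu38) at an unadjusted p under 0.05 were found for lgc-32 and lgc-44. The lgc-32 gene had 154 and 49 counts in N2 and 368 and 361 counts in pry-1(mu38), or 5.64, 1.48, 11.4 and 11.3 CPM. N2 replicate 2 was here the lowest library, and both mutant libraries were above both N2 libraries. The log2 fold change was 1.68 (SE 0.64, unadjusted p = 0.0489 in edgeR's test), 1.004 without N2 replicate 2, and 2.93 when N2 replicate 1 was left out. Its overlapping gene on the opposite strand, T19D7.7, had lower levels in pry-1(mu38), at 1.79 and 4.26 CPM in N2 and 1.24 and 1.12 CPM in pry-1(mu38). The lgc-44 gene had 531 and 515 counts in N2 and 922 and 883 counts in pry-1(mu38), or 19.4, 15.6, 28.6 and 27.5 CPM, with replicates close in both strains. Its log2 fold change of 0.68 (SE 0.20, unadjusted p = 0.0197 in edgeR's test) was 0.53 without N2 replicate 2, and leaving out N2 replicate 1 gave 0.85. DESeq2 gave adjusted p-values of 0.111 for lgc-32 and 0.165 for lgc-44, so neither passed there.

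**Figure D3:**
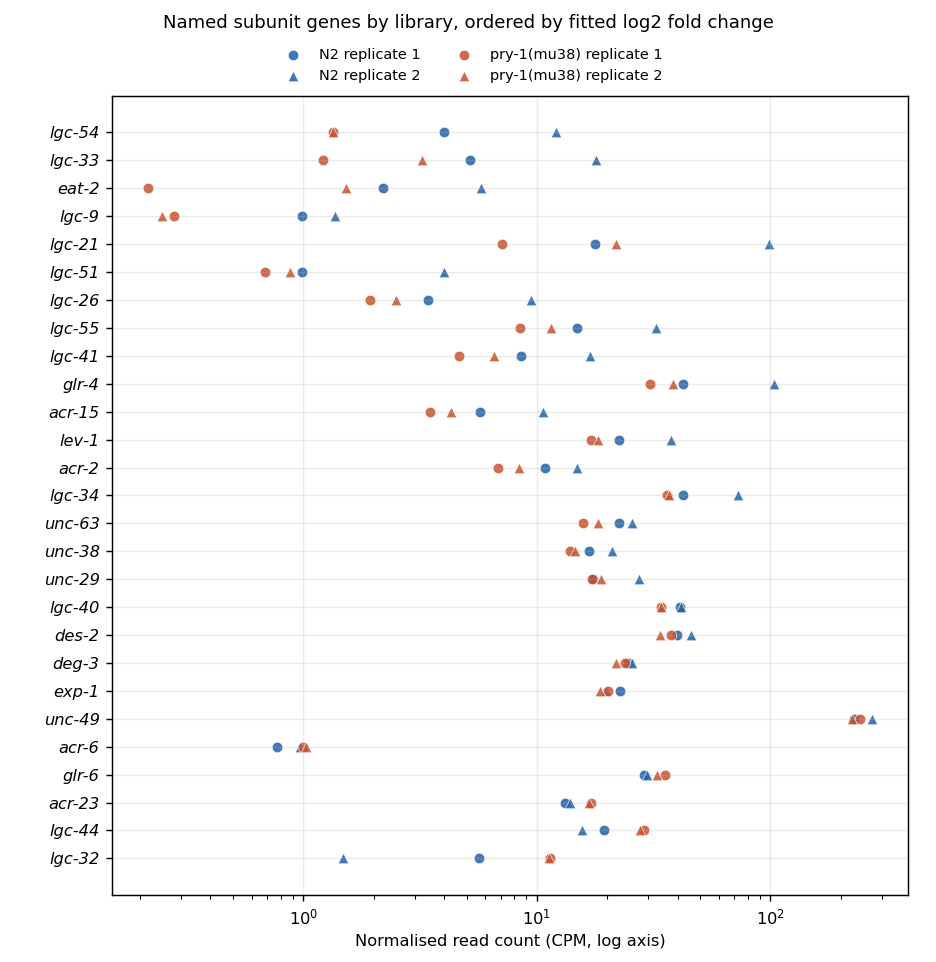
Normalised read count in CPM (log axis) of 27 subunit genes in each of the 4 libraries, ordered by fitted log2 fold change, with circles for replicate 1, triangles for replicate 2, blue for N2 and orange for pry-1(mu38). In the upper rows the blue triangle of N2 replicate 2 lies farthest right, as for lgc-54 at 12.03 CPM, and at the bottom lgc-32 and lgc-44 show both orange symbols to the right.

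The 10 subunit genes that were not tested were all of the lgc kind and had at most 36 counts in a library. The gene lgc-24 had 0 counts in all 4 libraries. The neighbours lgc-5 and lgc-6 had 3 and 20 counts and 8 and 36 counts in N2, against 3 and 1 counts and 3 and 7 counts in pry-1(mu38). The neighbours lgc-7 and lgc-8 had 4 and 14 counts and 2 and 16 counts in N2, against 1 and 3 counts and 0 and 3 counts in pry-1(mu38). In these 4 genes N2 replicate 2 was again the highest library. The gene lgc-18 was the other way, with 3 and 3 counts in N2 and 6 and 9 counts in pry-1(mu38). For lgc-15, lgc-16, lgc-17 and lgc-29 the counts ranged from 0 to 14. In all, 21 subunit genes lie next to another subunit gene in the genome, among them lgc-13 to lgc-17, and reads that aligned at several places count for no gene, so genes with a near-identical copy may be undercounted. Another coding gene overlaps 22 of the tested subunit genes on the opposite strand. Besides lgc-54 and lgc-32, these include the named genes lgc-41, lgc-44, unc-38, deg-3 and exp-1, and the gene overlapping exp-1, abts-3, was at 206 to 290 CPM, far above exp-1 itself.

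In the lists of genes that act with these channels, N2 replicate 2 again had the highest median level of the 4 libraries. Of 19 other Cys-loop channel genes, 17 were below 0 with a median log2 fold change of -0.44 (-0.19 without N2 replicate 2), 4 of them lower (background 8.23%) and 1 higher (background 5.93%) at an unadjusted p under 0.05. The higher gene was glc-1, a subunit of glutamate-gated chloride channels, at 11.6 and 5.62 CPM in N2 and 25.6 and 24.9 CPM in pry-1(mu38). The log2 fold change was 1.55 (SE 0.38), and 1.11 without N2 replicate 2. DESeq2 called glc-1 higher with an adjusted p of 0.0157, while edgeR's quasi-likelihood test gave an adjusted p of 0.345. The lower genes were acc-3 and acc-4, both of the acetylcholine-gated chloride channel family, ggr-2, and lev-8, a levamisole receptor subunit that was at 2.71 and 5.29 CPM in N2 and 1.71 and 1.93 CPM in pry-1(mu38).

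Of 12 genes for assembly and clustering of acetylcholine receptors 10 were matched and tested, 6 of them below 0, with a median of -0.32 (-0.07 without N2 replicate 2). The gene molo-1, whose product is an auxiliary subunit of levamisole receptors, was at 13.3 and 18.2 CPM in N2 and at 5.15 and 6.98 CPM in pry-1(mu38). Its strains were well apart, and the log2 fold change of -1.37 (SE 0.29) was -1.13 without N2 replicate 2 and was called lower by DESeq2 with an adjusted p of 0.0107, while edgeR's quasi-likelihood test gave an adjusted p of 0.345. Auxiliary, metabotropic and transporter genes of glutamate signaling were below 0 for 14 of 16 genes (median -0.69, and -0.10 without N2 replicate 2). Genes for synthesis, loading and breakdown of acetylcholine were below 0 for 5 of the 6 matched of 7 listed (median -0.68, and -0.19 without N2 replicate 2), and those for GABA for 5 of 5 (median -0.39, and -0.16 without N2 replicate 2). At an unadjusted p under 0.05 these lists held mgl-1 and sol-1 (2 of 16), ace-3 and ace-4 (2 of 6), and unc-47 and snf-11 (2 of 5), all lower in pry-1(mu38), beside 8.23% of all genes.

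Markers of whole tissues were compared with the subunit genes. For 10 neuron markers the median log2 fold change was -0.10 (-0.09 without N2 replicate 2), with 6 below 0 and 4 above. Single neuron markers ranged from -0.81 to 0.19, so the median does not stand for each of them. Their CPM summed to 1687 and 2016 in N2 and to 1646 and 1700 in pry-1(mu38). For 7 body wall muscle markers the median was -0.22, with all 7 below 0, and it turned to 0.16 without N2 replicate 2, with 2 of 7 below 0. Their sum was 15046 and 26535 CPM in N2 and 15293 and 15141 CPM in pry-1(mu38). The pharyngeal muscle markers, given above beside eat-2, had the lowest median of the marker lists, -1.60, and -0.56 without N2 replicate 2. Over 6 intestine markers the median was -0.12 (-0.10 without N2 replicate 2). It turned from 0.16 to -0.10 over the 5 tested of 6 epidermis markers, and from -0.35 to 0.11 over the 5 tested of 6 germ line markers, when N2 replicate 2 was left out. No marker was at 0 in all libraries. N2 replicate 2 had the highest summed level of the 4 libraries for the markers of neurons, muscle, intestine and germ line and the lowest for those of the epidermis. The part of these markers in the subunit results was not tested.

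**Figure D4:**
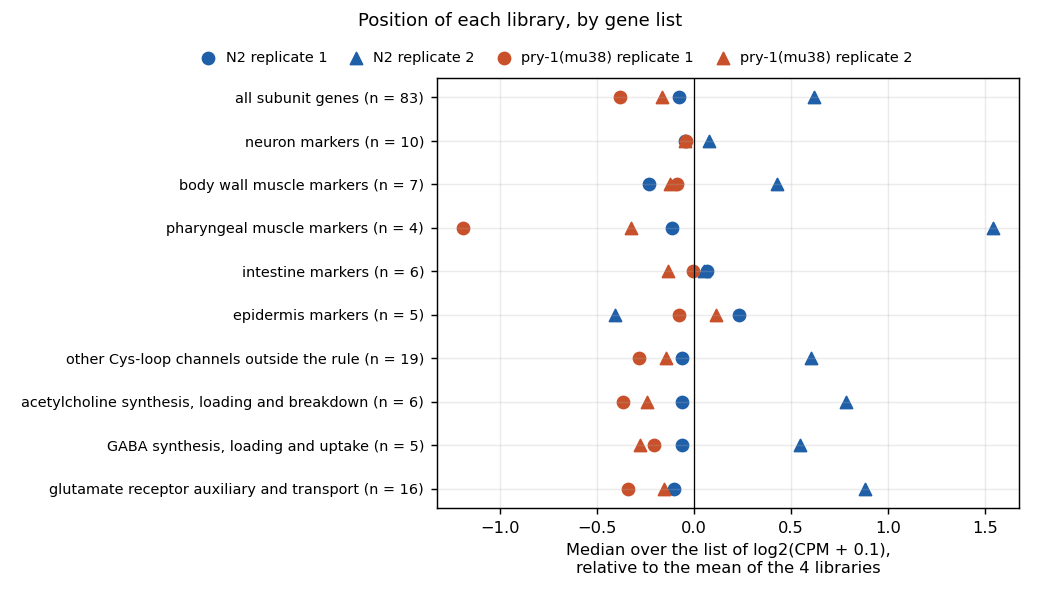
Median over each gene list of the log2 level, log2(CPM + 0.1), in each library relative to the mean of the 4 libraries (x axis), with circles for replicate 1, triangles for replicate 2, blue for N2 and orange for pry-1(mu38). For the 83 subunit genes N2 replicate 2 lies at 0.62 and the other libraries between -0.38 and -0.07. For the 10 neuron markers the library medians lie between -0.05 and 0.08, while log2 fold changes of single markers ranged from -0.81 to 0.19.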

How the data were processed

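For each of 4 L1 libraries (2 N2, 2 pry-1(mu38)) the authors deposited a table of whole-number read counts per gene, without normalization. The paper describes trimming, mapping to build ce6 with Bowtie (the series description names BWA), abundance estimation with eXpress, quantile normalization and DESeq; the table ends in the summary lines of a read counter and holds counts before normalization. The annotation and strand setting are not given in the sources used here. Those lines, for reads assigned to no gene, made up 15.4% to 18.3% of a library and were left out.

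Counts were tested with edgeR 4.0.16 in R 4.3.3 (filterByExpr with minimum count 10, TMM, quasi-likelihood test, Benjamini-Hochberg adjustment over all genes tested, threshold 0.05). CPM use TMM-scaled library sizes, and standard errors are from the same fit. The smallest p of a two-sided exact permutation test in this design is 0.333. Alternatives were DESeq2 1.42.0, edgeR's exact test, no TMM, quantile normalization (limma 3.58.1) with DESeq2, no filter, a mean of at least 10 counts, a replicate block, and each library left out in turn; where a strain then has 1 library, it is assumed to vary like the other strain's pair. The test was first tested on simulated data. All 93 gene names were matched to the annotation of WBcel235, used only for exon lengths and neighbours, since the counts were made on another build. No sequences are shown.

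The genes and lists were chosen with earlier results of these data known. Named with values in every library are the genes listed by name, the 10 with the smallest unadjusted p, up to 6 in each direction with the largest fold change (mean count of 10 or more, no overlap of strains), the 5 with the highest CPM per kb, those called by either test, and members of the role lists that the text describes. Genes outside the family have values only at an unadjusted p under 0.05, apart from overlapping genes, which were chosen after their values were seen.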

Additional observations from a re-analysis of the deposited data

How the results depend on the processing

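The number of subunit genes with an adjusted p under 0.05 was 0 in edgeR's quasi-likelihood test, where 11 had an unadjusted p under 0.05. It was 2 with DESeq2, 2 with edgeR's exact test and 2 (lgc-54 and lgc-33) after quantile normalization with DESeq2 (3.52% of all genes), and 0 to 46 with a library left out; the highest count came without N2 replicate 1, where 38.9% of all genes tested were called, and without N2 replicate 2 it was 0. Without pry-1(mu38) replicate 2, where 3.71% of all genes were called, the 3 genes called were lgc-33, eat-2 and lgc-21. At an unadjusted p under 0.05 there were 20 with DESeq2 (18 lower, beside 10.9% of all genes), 21 with the exact test (19 lower, beside 11%), 18 after quantile normalization with DESeq2 (16 lower, beside 9.24%), and 5 to 60 with a library left out (5.14% and 53.6% of all genes in the settings with these counts). With the replicate block the counts were 18 (adjusted) and 44 (unadjusted), where 15.4% of all genes were called, and 50.6% of the subunit genes were lower at an unadjusted p under 0.05 beside 17.6% of all genes. Libraries with the same number deviated together over all genes tested (r = 0.49 across genes, which are not independent replicates), but they share only a number, and there are only 2 pairs. Strains did not overlap for 53 subunit genes (63.9%, beside 57.0% of all genes), and for 56 to 82 with a library left out (67.5% to 98.8%, beside 64.3% and 93.1% of all genes in these settings), where fewer libraries have to be separated. The median log2 fold change of -0.64 ranged from -0.89 to -0.20 with a library left out. Of all 83 tested subunit genes, 22 reversed direction with at least 1 library left out, among them glr-1 (0.005 without N2 replicate 2), lgc-53 (0.13 without it) and acr-16 (-0.08 without N2 replicate 1). The share of all genes was not taken for this count. For the 27 genes named by their p, fold change, level or listing, every alternative was run: unc-29 (-0.60 to 0.046 with a library left out) and unc-49 (-0.23 to 0.019) reversed, both without N2 replicate 2 only. No TMM, no filter and a mean of at least 10 counts left all 27 on the same side of the threshold. Counting error bears most on the 10 genes under the filter and on lgc-9.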
